A study of Arabidopsis thaliana with 6 samples.

Results

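The transcriptome of mature pollen from the Arabidopsis thaliana insertion line SAIL_1168_C11, called the TF1 line in the sample titles, was compared with that of wild-type pollen. The comparison used the 4 arrays of the series whose titles name TF1 or the wild type, 2 for each, out of 6 arrays in all. The wild type was the Col-0 accession, and the line carries a T-DNA insertion of the SAIL collection in the Col background. The remaining 2 arrays held pollen of a second insertion line, SALK_018864 (TF2), and are used here for the estimate of the spread and for values set beside those of TF1. Per the labels, all plants grew on compost under growth-room conditions (21 °C, 75% humidity), whatever their group. Each group is 1 line, the labels used here do not name the gene hit by the SAIL_1168_C11 insertion, and the line could therefore not be checked through the signal of a targeted gene. The labels do not say whether replicates came from separate plants or collections, so the p-values cover only the variation among these arrays, which may be technical.

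A mature pollen grain consists of a large vegetative cell, which later grows the pollen tube, and the small sperm cells enclosed in it. The vegetative cell stores transcripts for tube growth before germination, among them those for actin, small GTPases, receptor kinases and enzymes that loosen or build the cell wall. MIKC*-type MADS-box factors such as AGL65 and AGL104 act late in pollen maturation, and pollen grains carry plastids but no green chloroplasts.

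Each array gave 1 signal (MAS5, a linear intensity) per probe set, and changes are differences of log2(signal + 10.33), an offset at the 25th percentile of all signals that understates the change of dim genes. The authors' scaling gave every array the same trimmed mean. Of 11373 probe sets tested, 2453 passed an adjusted p of 0.05 in limma (21.6%), 1357 higher in TF1 (11.9%) and 1096 lower (9.64%), while the unadjusted p was under that threshold for 3644. A second scaling, quantile normalization of the same values, gave 1059 higher (9.31%) and 789 lower (6.94%). With it the median over the tested probe sets went from -0.02 to 0.11, a shift of 0.13 that differed between bright and dim probe sets. In bulk pollen RNA, fewer cells of a type and less RNA per cell cannot be told apart.

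The tested probe sets with 1 listed gene on chromosomes 1 to 5, called nuclear here, numbered 6180 from 6136 loci. On the deposited scaling 783 of them were higher in TF1 (12.7%) and 408 were lower (6.6%). After quantile normalization 634 were higher (10.3%) and 271 lower (4.39%). The calls held on both scalings in the same direction for 504 rises (8.16%) and 243 falls (3.93%). For each of these probe sets both TF1 arrays lay on 1 side of both wild-type arrays. The share without overlap among all nuclear probe sets was not counted, so this separation is no further support. With the intensity trend in the fit rises were more numerous than falls; without it the nuclear counts turned to 40 rises and 117 falls. On the main fit falls were deeper. The median size was 0.85 on the log2 scale among the 783 rises and -1.53 among the 408 falls. At least 4-fold changes numbered 12 among rises and 103 among falls, and at least 8-fold changes numbered 0 among rises and 23 among falls.

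Beyond the 10 largest changes in each direction, falls were larger than rises of the same rank at ranks 11, 50 and 200. Among the calls held on both scalings, the rise at rank 11 was 2.08 on the log2 scale, that at rank 50 was 1.37 and that at rank 200 was 0.98. The fall at rank 11 was 3.30 in size, that at rank 50 was 2.54 and that at rank 200 was 1.07. In all, 179 of the 504 rises and 211 of the 243 falls were at least 2-fold. Only 74 of the 504 and 56 of the 243 carried a gene symbol in the table used here, and the rest are known by locus alone.

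The nuclear falls ranked 11 to 20 included light-harvesting and plastid proteins. LHCB4.1 (AT5G01530), an antenna protein of photosystem II, gave signals of 429 and 381 in wild type and 66.1 and 14.1 in TF1, a change of -3.26 (SE 0.525, limma adjusted p = 0.000809). AT2G26500 gave 1325 and 1223 in wild type and 133 and 112 in TF1, a change of -3.28 (SE 0.212, limma adjusted p = 1.92e-06). Its groups stood several-fold apart. EXO (EXORDIUM, AT4G08950), a gene of brassinosteroid-promoted growth, gave 574 and 528 in wild type and 60.5 and 43.0 in TF1, a change of -3.19 (SE 0.384, limma adjusted p = 0.000135). AT3G11630 fell by 3.13, from 257 and 232 to 24.5 and 14.1, and AT1G09310 fell by 3.17, from 1027 and 1165 to 124 and 101. The remaining falls of these ranks were those of AT4G16980, AT5G45950, AT3G47070, FDH (formate dehydrogenase) and AT5G44020, between -3.30 and -3.14. All 10 had both TF1 arrays below both wild-type arrays, which the ranking required. For AT4G16980, AT5G45950 and FDH the call was lost when either wild-type array was left out: the adjusted p was 0.0791, 0.101 and 0.128 with wild-type replicate 1 left out, and 0.0575, 0.0823 and 0.103 with wild-type replicate 2 left out.

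**Figure D1:**
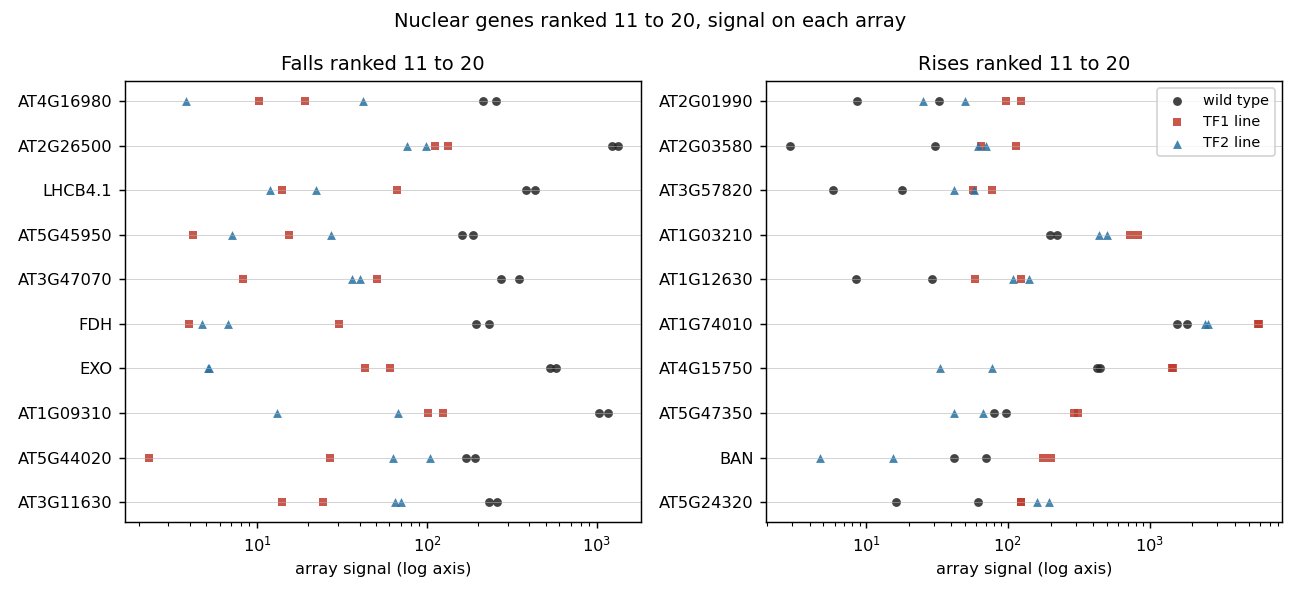
Signal on each of the 6 arrays (log axis) for the nuclear genes ranked 11 to 20 by fall (left) and by rise (right) among those called on both scalings. Circles are wild type, squares TF1 and triangles TF2. Squares and circles do not overlap for any of the 20 genes, since only genes without overlap were ranked. Several rises rest on wild-type signals near the offset of 10.33.

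Genes of photosynthesis fell together. The light reactions list had 10 nuclear members tested, 8 lower and 0 higher on both scalings, with a median of -2.33 against -0.02 over all tested probe sets. Among all nuclear probe sets 6.6% were lower on the deposited scaling and 4.39% after quantile normalization. The list matched 74 genes, of which 12 had a probe set of their own. Its deepest fall was that of LHCB4.2 (AT3G08940), the second antenna gene of that type, with 372 and 389 in wild type and 14.8 and 7.51 in TF1 (change -4.20, SE 0.557, limma adjusted p = 0.000245). PSAE-1 and PSAN, subunits of photosystem I, changed by -2.94 and -2.66. The Calvin cycle and photorespiration list had 4 members tested and all were lower, with a median of -3.79. Only these 4 of the 44 genes it matched had a probe set of their own. RCA (AT2G39730), the activase of Rubisco, gave 1744 and 1618 in wild type and 80.8 and 106 in TF1 (change -4.04, SE 0.200, limma adjusted p = 4.05e-07). SBPASE and PRK, enzymes that regenerate the CO2 acceptor, fell by 3.68 and 3.02, and HPR, the hydroxypyruvate reductase of photorespiration, by 3.89. In each of these genes the lower wild-type array stood several-fold above the higher TF1 array.

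These lists also mark green tissue. The summed signal of the light reactions list was 4583 and 4340 on the wild-type arrays and 724 and 835 on the TF1 arrays, and that of the Calvin list was 3361 and 3085 against 173 and 232. No member of either list was under a signal of 10 on both wild-type arrays or on both TF1 arrays. Probe sets were kept by their mean over all 6 arrays, wild type included, so the filter largely set this beforehand. The plastid-encoded genes moved with these lists: 67 of 68 were lower on the deposited scaling and 63 after quantile normalization, with a median of -2.44. Over all tested probe sets 9.64% were lower on the deposited scaling and 6.94% after quantile normalization. Of 15 mitochondrion-encoded probe sets, 8 were lower and 0 higher on the deposited scaling, with a median of -1.49. After quantile normalization 7 of these were lower, with a median of -1.28. The part of such transcripts in the other differences between TF1 and wild type was not tested.

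The nuclear chlorophyll and carotenoid list had 6 members tested, 0 lower and 1 higher, with a median of -0.58 and 2 positive changes. Among all nuclear probe sets 6.6% were lower and 12.7% higher. HEMA2 (AT1G09940), a glutamyl-tRNA reductase at the entry of tetrapyrrole synthesis, rose from 415 and 340 to 771 and 823 (change 1.06, SE 0.174, limma adjusted p = 0.000896). LIL3:2 (AT5G47110), a light-harvesting-like protein, fell from 114 and 109 to 3.95 and 6.34 (change -2.98, SE 0.523, limma adjusted p = 0.00142). Its 2 TF1 signals lay below the offset.

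Falls also reached stress, metal-binding and primary metabolism genes. MT1C (AT1G07610), a metallothionein, gave 968 and 839 in wild type and 128 and 74.3 in TF1 (change -3.08, SE 0.232, limma adjusted p = 5.78e-06). ECS1 (AT1G31580) fell by 3.61 (SE 0.496, limma adjusted p = 0.0003). Of 7 members of the late embryogenesis and cold list, 3 were lower and 0 higher, against 6.6% and 12.7% of nuclear probe sets. On the deposited scaling 3 of the 7 changes were positive, and after quantile normalization 2 members were lower. The dehydrin COR47 (AT1G20440), a cold- and drought-regulated protein, fell from 623 and 648 to 124 and 96.4 (change -2.43, SE 0.215, limma adjusted p = 1.9e-05). Its change was the deepest of that list. RD2 and LEA26 (AT2G44060) had changes of -1.38 and -1.67. RD2 lost its call without wild-type replicate 2 (adjusted p = 0.0835), and LEA26 after quantile normalization (0.0533) and with wild-type replicate 1 (0.0965), wild-type replicate 2 (0.172) or TF1 replicate 1 (0.111) left out.

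In the glycolysis, fermentation and TCA cycle list 3 of 17 members were lower and 0 higher on both scalings, with a median of -0.70. Among all nuclear probe sets 6.6% were lower and 12.7% higher on the deposited scaling, and 4.39% and 10.3% after quantile normalization. GAPC2 (AT1G13440), a cytosolic glyceraldehyde-3-phosphate dehydrogenase, fell from 1139 and 996 to 375 and 366 (change -1.50, SE 0.173, limma adjusted p = 0.000103). ALDH11A3 (AT2G24270), the non-phosphorylating glyceraldehyde-3-phosphate dehydrogenase, fell from 316 and 432 to 77.7 and 72.2 (change -2.15). The array's own GAPDH controls at the 3′ end moved the same way, from 794 and 719 to 230 and 225 and from 573 and 731 to 211 and 238. Its actin controls at the 3′ end went from 624 and 636 to 157 and 190 and from 595 and 700 to 220 and 231. At the 5′ end GAPDH went from 158 and 137 to 71.5 and 132 and from 661 and 407 to 167 and 146. Actin there went from 104 and 84.8 to 102 and 172 and from 131 and 201 to 55.7 and 128. What these values mean for RNA quality was not tested. The ubiquitin control at the 3′ end gave 4569 and 4251 in wild type and 5055 and 3842 in TF1, with overlapping groups. The third member called, ALDH7B4, had a change of -0.72 that lost its call without wild-type replicate 1 (adjusted p = 0.136), wild-type replicate 2 (0.175) or TF1 replicate 2 (0.146).

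PRXR1 (AT4G21960), a class III peroxidase, fell from 828 and 846 to 412 and 379 (change -1.06, SE 0.139, limma adjusted p = 0.000231), and PRX52 changed by -1.50. Of 16 sugar transport genes 3 were lower and 1 was higher, against 6.6% and 12.7% of nuclear probe sets. The lower member SFP1 (-1.31) was not called after quantile normalization (limma adjusted p = 0.0803) or with any 1 of the 4 arrays left out (up to 0.207). SWEET8 (AT5G40260), also named RUPTURED POLLEN GRAIN1 and required for the pollen wall, fell from 672 and 589 to 289 and 297 (change -1.08, SE 0.201, limma adjusted p = 0.00217). AtVEX1 (AT5G62850), a SWEET transporter named for its expression in the vegetative cell, fell from 623 and 684 to 345 and 362 (change -0.86, SE 0.167, limma adjusted p = 0.00269). SWEET8 and AtVEX1 kept their calls after quantile normalization and with any 1 of the 4 arrays left out. TMT1, a tonoplast monosaccharide transporter, changed by 0.80 in the other direction, with an adjusted p of 0.057 without wild-type replicate 2 and 0.0528 without TF1 replicate 1.

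Among the rises, the 10 genes at ranks 11 to 20 fell into a bright and a dim set. AT1G74010 gave 1844 and 1549 in wild type and 5884 and 5811 in TF1 (change 1.78, SE 0.125, limma adjusted p = 3.62e-06; 1.11 after quantile normalization). AT4G15750 gave 442 and 424 in wild type and 1458 and 1430 in TF1 (change 1.71, SE 0.269, limma adjusted p = 0.00069). AT1G03210 gave 222 and 197 in wild type and 826 and 726 in TF1, a change of 1.84, and AT5G47350 gave 79.9 and 96.6 against 294 and 314, a change of 1.68. These 4 kept their calls with any 1 array left out. AT2G01990, AT2G03580, AT3G57820, AT1G12630 and AT5G24320 had at least 1 wild-type signal under 20 and changes of 1.62 to 2.08. Each of these 5 lost its call without 1 of the wild-type arrays and also without 1 of the TF1 arrays, and the highest adjusted p with any 1 array left out was 0.181, 0.237, 0.248, 0.2 and 0.176 in that order.

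BAN (BANYULS, AT1G61720), the anthocyanidin reductase of the seed coat, completed these ranks, with 41.5 and 70.0 in wild type and 203 and 176 in TF1 (change 1.63, SE 0.495, limma adjusted p = 0.0344). DELTA-VPE (AT3G20210), a vacuolar processing protease also known from the seed coat, gave 116 and 93.0 in wild type and 254 and 284 in TF1 (change 1.29, SE 0.416, limma adjusted p = 0.0451). The groups did not overlap in either gene, which their choice as named genes required. Each lost its call with any 1 of the 4 arrays left out. The change was then 1.31 to 1.94 for BAN and 1.14 to 1.43 for DELTA-VPE. The flavonoid and seed coat list had 4 members tested, with a summed signal of 268 and 269 in wild type and 581 and 556 in TF1, and BAN was the 1 member called. Whether transcripts from other tissue enter the rise of BAN was not tested.

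Other rises were in hormone, signalling, transport and replication genes. JMT (AT1G19640), the methyltransferase that makes methyl jasmonate, gave 252 and 245 in wild type and 1313 and 1103 in TF1 (change 2.23, SE 0.149, limma adjusted p = 2.44e-06). XPO1B (AT3G03110), an exportin that carries proteins out of the nucleus, gave 37.1 and 11.5 in wild type and 180 and 159 in TF1 (change 2.48, SE 0.417, limma adjusted p = 0.00109). PIPK11 (AT1G01460), a phosphatidylinositol phosphate kinase, gave 3288 and 2773 in wild type and 8246 and 8539 in TF1 (change 1.47, SE 0.124, limma adjusted p = 1.27e-05; 0.69 after quantile normalization). In these 3 genes the lower TF1 array was more than double the higher wild-type array. The subtilase SBT3.12 rose by 1.47, PRL (PROLIFERA, the MCM7 subunit of the replicative helicase) by 1.35 and ATU2AF65A, a splicing factor of the U2AF type, by 1.30. EIN3, the transcription factor at the end of the ethylene pathway, rose from 995 and 847 to 2066 and 1883 (change 1.09, SE 0.149, limma adjusted p = 0.000281).

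Of 30 transcription factors tested, 8 were higher and 2 lower, with a median of 0.20, against 12.7% higher and 6.6% lower among nuclear probe sets. After quantile normalization 8 were higher and 1 lower. With 1 array left out, 4 (without wild-type replicate 2), 5 (without wild-type replicate 1 or TF1 replicate 1) or 6 (without TF1 replicate 2) were higher and 0 lower. The 6 nuclear MADS-box genes among the 8 were AGL18, AGL29, AGL30, AGL65, AGL66 and AGL104. AGL65 (AT1G18750) gave 581 and 448 in wild type and 916 and 881 in TF1 (change 0.80, SE 0.156, limma adjusted p = 0.00271). AGL104 (AT1G22130) gave 361 and 330 in wild type and 591 and 620 in TF1 (change 0.79, SE 0.162, limma adjusted p = 0.00377). AGL18 (AT3G57390) gave 2537 and 2522 in wild type and 4735 and 5824 in TF1, a change of 1.05 that was not called after quantile normalization (0.34, limma adjusted p = 0.0683). bZIP18 (AT2G40620) rose by 0.99. The 2 factors lower, STZ (-0.68) and BZIP53 (-0.66), thus lost their calls with each of the 4 arrays left out, and BZIP53 also after quantile normalization (limma adjusted p = 0.111).

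Of 11 cell cycle, histone and chromatin genes 4 were higher and 0 lower, with a median of 0.52, against 12.7% and 6.6% of nuclear probe sets, and 5 were higher after quantile normalization. MGH3 (AT1G19890), the histone H3 variant of the male gametes, gave 536 and 617 in wild type and 1210 and 1157 in TF1 (change 1.03, SE 0.147, limma adjusted p = 0.000379). The kinase gene cdc2cAt (AT5G39420) rose by 1.18, and by 0.39 after quantile normalization. The summed signal of the 3 sperm markers tested was 647 and 773 in wild type and 1426 and 1391 in TF1, most of it from MGH3; the other members, TET11 (0.87, limma adjusted p = 0.0954) and TET12 (0.40, 0.611), were not called on the deposited scaling. HDA15, a histone deacetylase, had a change of 0.99 that lost its call without wild-type replicate 2 (adjusted p = 0.237), TF1 replicate 1 (0.0827) or TF1 replicate 2 (0.15).

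Vegetative-cell markers rose on the deposited scaling and less so, or not at all, after quantile normalization. All 8 vegetative-cell markers tested were higher on the deposited scaling, with a median of 0.76, against 12.7% of nuclear probe sets. After quantile normalization 4 were higher, with a median of 0.40, against 10.3%. Of the 582 nuclear probe sets in the brightest signal group, defined below, 444 were higher on the deposited scaling, with a median of 0.74. After quantile normalization 167 of the 582 were higher, with a median of 0.22. Whether the markers differed from other genes of similar signal was not tested. AGL18, AGL65 and AGL104 were also in the transcription factor list and ANX2 in the tube-signalling list. The summed signal of the 8 markers was 11108 and 10661 in wild type and 19878 and 19092 in TF1. The tube-signalling list included the ANXUR receptor kinases, the RALF peptides and the GTPase regulator SCN1. On the deposited scaling 5 of its 7 members were higher and 1 lower, with a median of 0.75, against 12.7% and 6.6% of nuclear probe sets. After quantile normalization 0 were higher, 1 was lower and the median was 0.01. ANX2 (AT5G28680), a receptor kinase that keeps the growing tube intact, gave 3697 and 3859 in wild type and 7593 and 5885 in TF1 (change 0.82, limma adjusted p = 0.0012). After quantile normalization its change was 0.01 (limma adjusted p = 0.968). SCN1 (AT3G07880), a RhoGDI that restricts ROP GTPases to the growing tip, changed by 0.82 on the deposited scaling and by -0.0081 after quantile normalization. RALFL33 (AT4G15800) ran the other way on both scalings, from 340 and 329 to 74.2 and 13.4 (change -2.94, limma adjusted p = 0.00428). RALFL33 was the 1 member lower, and its adjusted p was 0.069 without wild-type replicate 1 and 0.0647 without wild-type replicate 2.

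Of 18 members of the cytoskeleton list 9 were higher and 2 lower on the deposited scaling, with a median of 0.50. Among all nuclear probe sets 12.7% were higher and 6.6% lower. After quantile normalization 3 members were higher and 1 lower, with a median of 0.04, against 10.3% and 4.39%. TUA1 (AT1G64740), an alpha-tubulin, gave 10279 and 10350 in wild type and 19276 and 19062 in TF1, a change of 0.89 that was 0.10 after quantile normalization (limma adjusted p = 0.566). The actin-bundling LIM protein gene PLIM2a went from 20237 and 20607 to 30503 and 42276, a change of 0.81 that was 0.06 after quantile normalization (limma adjusted p = 0.762). TUB6 and WLIM2b were the 2 members lower, and TUB6 was not called after quantile normalization (limma adjusted p = 0.132) or with any 1 of the 4 arrays left out (up to 0.247).

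**Figure D2:**
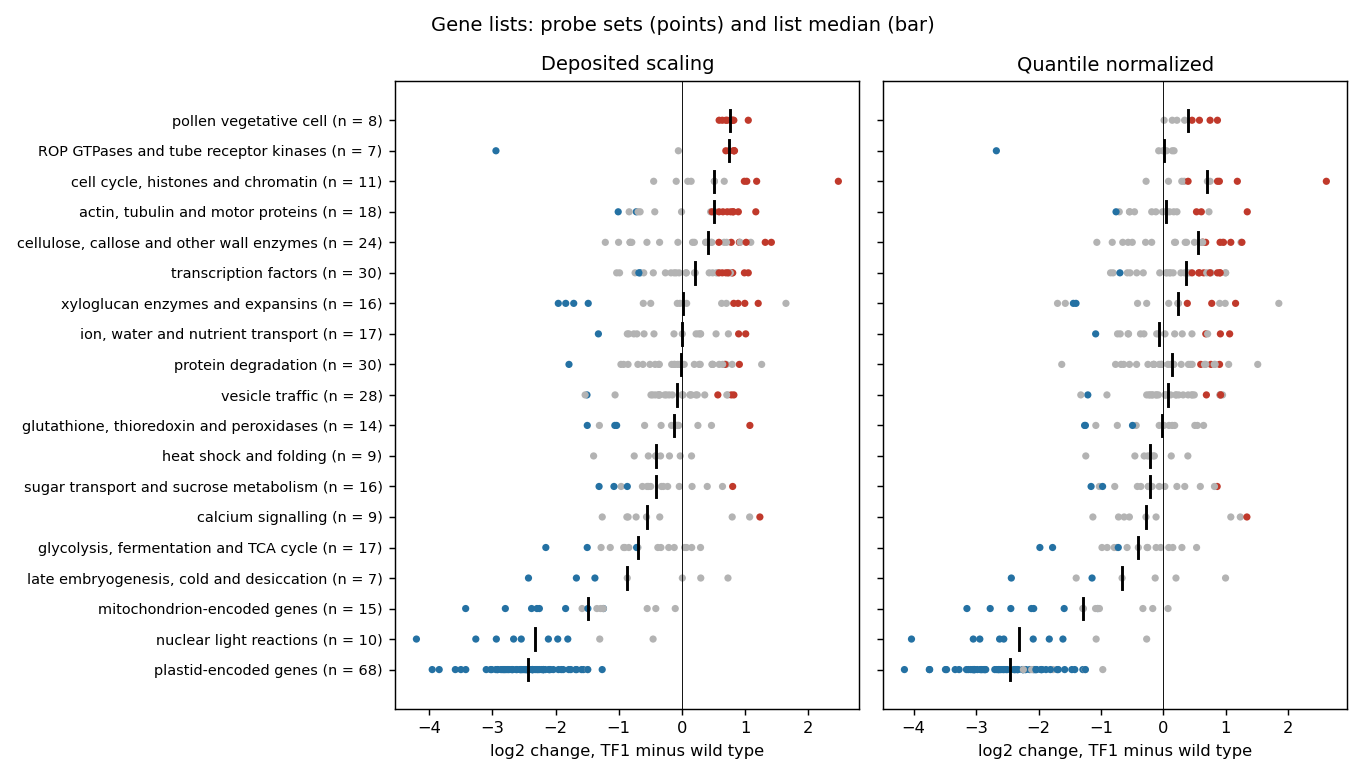
Log2 change, TF1 minus wild type, of each probe set (point) and the list median (bar) for gene lists with at least 7 members tested, on the deposited scaling (left) and after quantile normalization (right). Red points are higher in TF1 and blue lower at a limma adjusted p of 0.05, grey not called; the photosynthesis and plastid lists stay near -2.3 to -2.4 on both, and the tube-signalling and cytoskeleton medians move from 0.75 and 0.50 to 0.01 and 0.04.

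In the list of cellulose, callose and other wall enzymes 6 of 24 were higher and 0 lower, with a median of 0.42, against 12.7% and 6.6% of nuclear probe sets, and 7 were higher after quantile normalization. GH9A4 (AT3G43860), a family 9 glycosyl hydrolase, gave 9865 and 9914 in wild type and 25141 and 27747 in TF1 (change 1.42, SE 0.126, limma adjusted p = 2.03e-05; 0.63 after quantile normalization). CSLC12 (AT4G07960), of the family that makes the xyloglucan backbone, gave 1930 and 1499 in wild type and 3832 and 4738 in TF1 (change 1.32, SE 0.149, limma adjusted p = 9.32e-05; 0.68 after quantile normalization). The 2 groups did not overlap in either gene, which their choice as named genes required. Of 16 xyloglucan enzymes and expansins, 4 were higher and 4 lower, against the same nuclear shares of 12.7% and 6.6%. All 4 that were higher were expansins, proteins that loosen the wall: EXPA4 (change 1.21), EXPA16 (1.00), EXPB5 (0.89) and EXPA24 (0.82). After quantile normalization EXPB5 was not called, with a change of 0.23, and the change of EXPA4 was 0.38. The 4 lower were the expansin-like EXLA1 (-1.48) and the xyloglucan transferases XTH18 (-1.96), XTH19 (-1.84) and EXGT-A3 (-1.71). These 4 falls were less firm. XTH18 and XTH19 were not called after quantile normalization (limma adjusted p = 0.0607 and 0.0925), EXLA1 lost its call without wild-type replicate 1 (0.0898), and EXGT-A3 without wild-type replicate 1 (0.107), wild-type replicate 2 (0.105) or TF1 replicate 2 (0.0843).

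Of 17 ion and water transport genes 2 were higher and 1 lower, which is near the 12.7% and 6.6% of all nuclear probe sets. VHA-A3, a subunit of the vacuolar proton pump, rose from 732 and 785 to 1502 and 1346 (change 0.90, limma adjusted p = 0.000387), and the cation exchanger CHX6B rose by 1.01. CHX19 had a change of -1.32 and an adjusted p of 0.0815 without wild-type replicate 2. Of 28 vesicle traffic genes 3 were higher and 1 lower, with a median of -0.07, against the same nuclear shares, and SEC22, a SNARE of ER-to-Golgi transport, rose by 0.82. Of 30 protein degradation genes 2 were higher and 1 lower, with a median of -0.02, also against 12.7% and 6.6%. None of the 9 heat shock genes passed, with a median of -0.41, against the same shares. CML39 (AT1G76640), a calmodulin-like calcium sensor, rose from 353 and 300 to 866 and 703 (change 1.23, SE 0.202, limma adjusted p = 0.000899). It was the 1 called of 9 calcium signalling genes, against 12.7% higher and 6.6% lower among nuclear probe sets. LCB2, a subunit of the serine palmitoyltransferase that starts sphingolipid synthesis, rose by 0.87.

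The scalings differed by signal level, and for the rises the gap lay in the brightest genes. The tested probe sets were divided into 10 equal groups by their mean signal on the 4 arrays. The brightest group, from a signal of 576 upwards, held 799 of the 1357 rises on the deposited scaling and 287 of the 1059 after quantile normalization. Its median change was 0.69 on the deposited scaling and 0.17 after quantile normalization, while in each of the other groups the median was higher after quantile normalization than before it. Of its 582 nuclear probe sets 444 were higher and 20 lower on the deposited scaling, and 167 higher and 48 lower after quantile normalization. In the next brightest group 194 were higher and 90 lower on the deposited scaling, and 231 and 75 after quantile normalization. The falls lost to quantile normalization lay mostly in dimmer groups: nuclear falls went from 100 to 62 in signal group 8, from 66 to 30 in group 7 and from 42 to 15 in group 6. The 100 brightest probe sets carried 31.3% and 30.5% of the summed signal on the wild-type arrays and 36.1% and 39.0% on the TF1 arrays. Across all nuclear probe sets 273 rises and 165 falls were called on the deposited scaling and not after quantile normalization, and 130 rises and 22 falls were called after quantile normalization only.

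**Figure D3:**
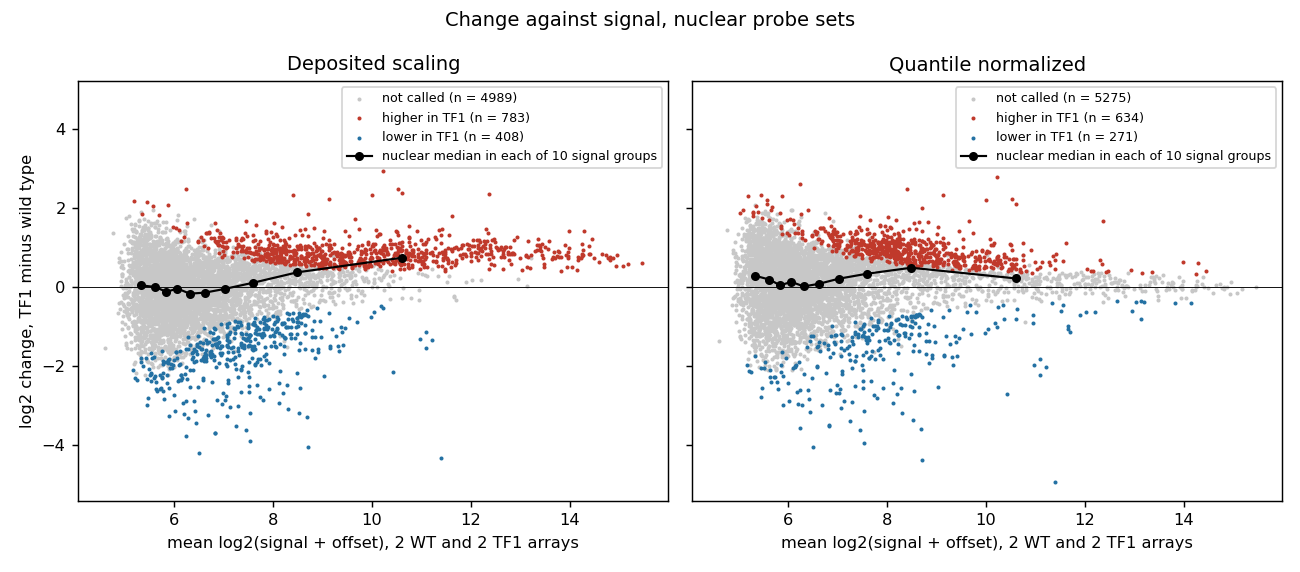
Log2 change, TF1 minus wild type, against mean log2(signal + offset) of the 4 arrays for the 6180 nuclear probe sets, on the deposited scaling (left) and after quantile normalization (right). Red is higher and blue lower in TF1 at a limma adjusted p of 0.05, and black points join the nuclear medians in 10 equal groups of all tested probe sets by signal; the brightest group stands at 0.74 on the left and 0.22 on the right.

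For 6 nuclear probe sets the 2 scalings gave calls in opposite directions, all higher on the deposited scaling and lower after quantile normalization. They were AT2G13350 (0.47 and -0.39), AT2G33420 (0.40 and -0.41), AT3G19020 (0.43 and -0.39), AT3G28790 (0.42 and -0.41), AT3G55430 (0.51 and -0.34) and AT5G27870 (0.45 and -0.36). All 6 were bright, with wild-type signals from 5068 to 16015 and TF1 signals from 7539 to 22016. The groups did not overlap on the deposited scaling in any of them. The share without overlap among all nuclear probe sets was not counted, so this is no further support. All 6 lost the deposited call without wild-type replicate 2 (adjusted p from 0.075 to 0.348), and AT3G19020, AT3G28790 and AT5G27870 with any 1 of the 4 arrays left out.

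The intensity trend in the fit also mattered. Fitted without it, limma called 456 probe sets, 75 higher and 381 lower, and 40 nuclear rises and 117 nuclear falls. Of the 582 nuclear probe sets in the brightest group 19 were then higher and 8 lower. Of the genes whose values are given above, those that kept their calls without the trend were, among rises, AT1G03210, AT1G74010, AT5G47350, XPO1B, JMT, PIPK11 and GH9A4, and, among falls, AT2G26500, LHCB4.1, LHCB4.2, RCA, SBPASE, PRK, PSAN, LIL3:2, EXO, MT1C, ECS1, COR47, RD2, GAPC2, ALDH11A3, PRX52, FDH, XTH19, AT3G11630, AT3G47070, AT5G44020 and AT5G45950. No transcription factor, cytoskeleton, tube-signalling or vegetative-cell member did.

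Calls differed with gene length. Nuclear probe sets were divided into 5 equal groups by the length of the gene from start to end in the RefSeq annotation. In the shortest group (up to 1459 bp) 11.5% were lower in TF1, and in the longest (from 3497 bp) 2.1% were. The share of rises was 10.3% in the shortest group, 15.9% in group 4 and 13.5% in the longest. After quantile normalization the falls went from 8.66% to 1.13% and the rises from 6.72% to 14.1%. The median length was 1629 bp for the 243 falls held on both scalings, 2682.5 bp for the 504 rises and 2268 bp for all nuclear probe sets tested. The gradient of the falls was present without the light reactions and Calvin members (11.1% to 2.1%) and within signal groups 7 to 9, where 30.0% of the shortest and 4.59% of the longest genes were lower and 11.4% and 25.4% were higher.

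**Figure D4:**
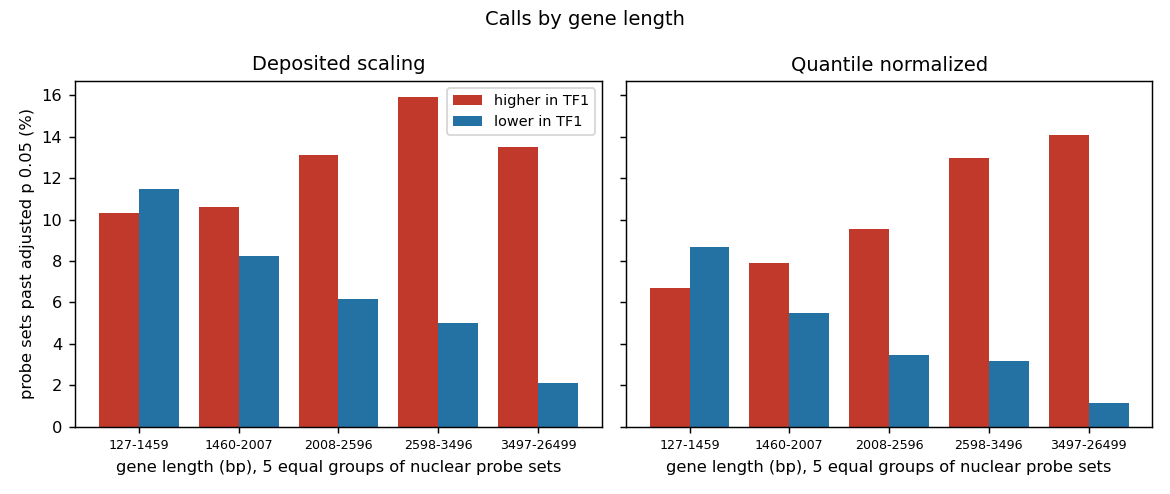
Share of nuclear probe sets (%) higher (red) and lower (blue) in TF1 at a limma adjusted p of 0.05, in 5 equal groups by gene length in bp, on the deposited scaling (left) and after quantile normalization (right). The share lower declines at each step from 11.5% to 2.1% on the left and from 8.66% to 1.13% on the right.

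With wild-type replicate 1, wild-type replicate 2, TF1 replicate 1 or TF1 replicate 2 left out, 4.69%, 5.34%, 8.41% and 9.22% of the shortest group and 0.405%, 0.485%, 2.43% and 1.86% of the longest were lower. Without the intensity trend the falls were 3.8% and 0.405%, and the rises 0.647% and 0.405%, so that the gradient of the rises was no longer seen. These shares are descriptions and carry no test, and the role of RNA quality was not tested. The 5 chromosomes were close to each other, with 12.4% to 13.0% of nuclear probe sets higher and 5.82% to 7.52% lower.

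Along the chromosomes, 950 of the called nuclear genes stood alone among their tested neighbours, 100 runs had 2 genes called the same way, 9 had 3 and 2 had 4. The run of 4 on chromosome 2 comprised AT2G07722, AT2G07724, AT2G07739 and AT2G07741, with changes of -1.42, -2.11, -2.75 and -2.86. AT2G07741 gave 628 and 550 in wild type and 55.8 and 92.8 in TF1. This stretch of chromosome 2 is known to hold a copy of the mitochondrial genome, so these probe sets may also detect mitochondrial transcripts. The run on chromosome 4 comprised AT4G12890, scpl20 (a serine carboxypeptidase-like protein), AT4G12930 and GILT (a lysosomal-type thiol reductase), with changes of 1.13, 1.26, 1.12 and 1.08. GILT gave 1293 and 1257 in wild type and 2383 and 3057 in TF1. It was not called after quantile normalization (0.54, limma adjusted p = 0.176) or without wild-type replicate 1 (0.0708), wild-type replicate 2 (0.084) or TF1 replicate 2 (0.132). The call of scpl20 was lost without wild-type replicate 2 (0.214), TF1 replicate 1 (0.158) or TF1 replicate 2 (0.0643).

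TF2 pollen separated some of these genes from the rest. The TF1 and TF2 comparisons share the wild-type arrays, so their values are only set side by side, and the direct test of TF2 against TF1 called 529 of 11373 probe sets (4.65%). Of the 108 genes chosen for naming, 24 passed that test on the deposited scaling and 18 of these also after quantile normalization. The 108 were chosen for their changes in TF1, and the test uses the same TF1 arrays. Their share is therefore not comparable with the 4.65%, and the choice itself favours genes with TF1 arrays at an extreme. GILT gave 35.6 and 13.4 in TF2, against 1293 and 1257 in wild type and 2383 and 3057 in TF1. AT4G15750 gave 77.6 and 33.3 in TF2, below both other groups. BAN gave 15.4 and 4.77, DELTA-VPE 24.9 and 6.20, WLIM2a 19.5 and 55.4 and CML39 106 and 86.6. In these 6 genes the TF1 arrays were the highest of the 3 groups and the TF2 arrays the lowest, with no overlap. For MT1C the order differed, with 721 and 942 in TF2, within reach of the wild type's 968 and 839, and 128 and 74.3 in TF1. PRXR1 was lowest in TF1 as well, at 412 and 379 against 1067 and 1011 in TF2. EXO was lower still in TF2, at 5.21 and 5.13, and AT1G74010 stood at 2438 and 2565 there, between wild type and TF1.

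**Figure D5:**
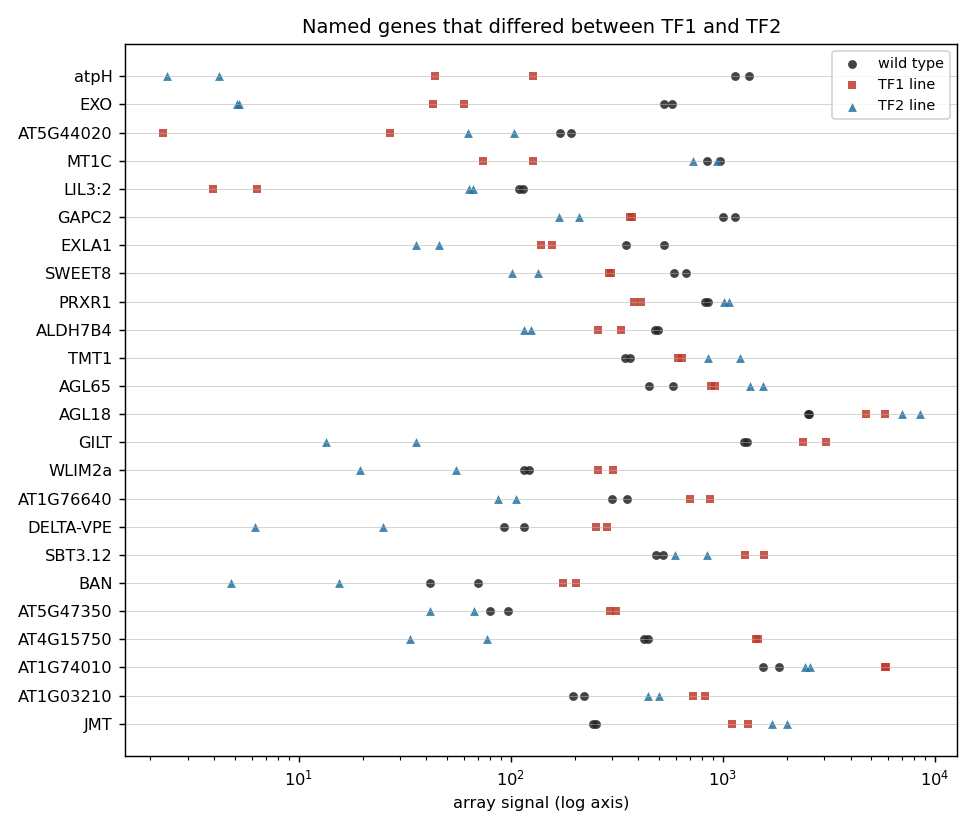
Signal on each of the 6 arrays (log axis) for the 24 named genes that passed the limma test of TF2 against TF1, ordered by their change in TF1. Circles are wild type, squares TF1 and triangles TF2; for GILT, AT4G15750, BAN, DELTA-VPE, WLIM2a and AT1G76640 (CML39) the squares lie to the right of the circles and the triangles to the left.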

How the data were processed

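Mature pollen RNA was isolated on Qiagen columns and biotin-labelled by the one-cycle method, per the labels. Each deposited value is a probe set's signal intensity, linear and not logged; the submitters' processing notes name MAS5 and GCOS, without versions or settings in what was used here. Read from the values, the authors scaled each array to a mean of 100.0 after trimming 2% at each end. No present or absent calls were used, the number of arrays limits the precision, and 0 columns were left unmapped.

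Of 22810 probe sets 64 Affymetrix controls were left out. The probe annotation gave 1 gene for 13513, several for 503 and none for 8730; 13436 of the first were matched to RefSeq (TAIR10.1), which was used for names, gene order and gene length only. Probe sets with a mean log2 value over the 6 arrays at or above the median were kept (11373). limma 3.58.1 in R 4.3.3 (lmFit, eBayes with an intensity trend) was fitted on log2(signal + 10.33) over 6 arrays with 3 residual degrees of freedom, two-sided, with Benjamini-Hochberg adjustment over all 11373 and 0.05 as the threshold; all adjusted p-values come from it. An exact permutation of 2 arrays against 2 cannot reach that threshold and was not run. The fit was repeated after quantile normalization, and run on simulated data. The simulated spread followed the signal level, as the intensity trend assumes, so that run cannot test the choice of the trend. Replicate numbers did not pair the samples: deviations of same-numbered arrays correlated at 0.002 to 0.022.

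Named genes were nuclear genes called on both scalings without overlap at ranks 11 to 20 in each direction, the 12 largest rises and falls with a symbol, up to 4 called members of each list by size on the deposited scaling, and genes called in opposite directions. The controls and the run, family and list members named beyond this rule were chosen after their values were seen. Members and lists were chosen with earlier results of these data known. Lists matched gene symbols, and 17 matches by spelling alone were dropped, 1 of them (FDH) after its value was seen. The divisions by signal, gene length, neighbours and symbol prefix were added after the values were seen. A planned description of promoter and protein sequences was not run, since sequences were not used here.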

Additional observations from a re-analysis of the deposited data

Results flagged for a closer look

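The 24 named genes below were singled out because TF2 and TF1 differed in limma's test of the 2 lines against each other (adjusted p 0.05, two-sided, all 6 arrays); values are TF2 minus TF1 on the log2 scale and the deposited scaling. For 6 genes TF1 stood above and TF2 below the wild type: GILT (-6.36), AT4G15750 (-4.55), DELTA-VPE (-3.53), BAN (-3.33), AT1G76640 or CML39 (-2.90) and WLIM2a (-2.71). AT5G47350 (-2.31) had the same order.

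Rises that were smaller in TF2 were those of AT1G74010 (-1.22), SBT3.12 (-0.98) and AT1G03210 (-0.71). Rises that were larger in TF2 were those of TMT1 (0.69), AGL65 (0.68), JMT (0.62) and AGL18 (0.55). After quantile normalization these 4 were not called (limma adjusted p = 0.0532, 0.0723, 0.0688 and 0.106), nor was AT1G03210 (0.0571).

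Falls that were deeper in TF2 were those of atpH (-2.67), EXO (-1.99), EXLA1 (-1.63), SWEET8 (-1.25), ALDH7B4 (-1.22) and GAPC2 (-0.94). Falls that were shallower or absent in TF2 were those of MT1C (2.95), LIL3:2 (2.29), AT5G44020 (2.07) and PRXR1 (1.37). AT5G44020 was not called after quantile normalization (limma adjusted p = 0.0647).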

How the results depend on the processing

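Counts of calls in TF1 against wild type moved most without the intensity trend: 456 in all (75 higher, 381 lower), 157 nuclear (40 higher, 117 lower) and 73 list members against 166, with 342 in all after quantile normalization without the trend. With 1 array left out, the count was 1276 to 1842 in all (820 to 1037 higher, 430 to 863 lower) and 614 to 883 nuclear (481 to 598 higher, 118 to 301 lower), with the lowest totals without wild-type replicate 2. Quantile normalization took the nuclear falls from 408 to 271. Median centring of each array gave 1551 higher and 837 lower against 1357 and 1096. The other pseudocounts, filters, the fit on 4 arrays and the replicate block (2521 calls, 800 nuclear rises and 430 nuclear falls) kept each of these counts within 1.5 times; the numbers only name the samples. Under quantile normalization 9 of 108 named genes changed sign: SCN1 (-0.0081), UBC28 (-0.16), FATB (-0.11), AT5G27870 (-0.36), AT3G55430 (-0.34), AT2G33420 (-0.41), AT3G28790 (-0.41), AT3G19020 (-0.39) and AT2G13350 (-0.39). Of the 108, 54 kept their calls under every setting that tested them except the missing trend. Among the 108, 29 kept them under every one of the 13 settings that tested them. The filter at the 75th percentile tested 87 of the 108, and the pseudocount at the 10th percentile 107. The cause of these moves was not tested.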

Other observations

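Gene families read from symbol prefixes, with at least 5 members tested, gave a further view of TF1 against wild type. Of 5 EXPA expansins 3 were higher on both scalings, with a median of 1.00, and of 5 CHR chromatin remodelling genes 2 were higher on both, with a median of 0.86. Of 11 UBP ubiquitin-specific proteases 0 were called on the deposited scaling, with a median of 0.48, and 2 were higher after quantile normalization. Of 8 ALDH aldehyde dehydrogenases 2 were lower on both scalings, with a median of -0.87. Of 9 SWEET sugar transporters 1 was lower on both scalings, with a median of -0.50. None of 11 UGT glycosyltransferases, 5 WRKY factors or 6 VPS sorting genes was called on either scaling. Among all nuclear probe sets 12.7% were higher and 6.6% lower on the deposited scaling, and 10.3% and 4.39% after quantile normalization. These families were formed, and picked from a longer set, after the values were seen and carry no test.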
